A study of Mus musculus and Ictidomys tridecemlineatus with 36 samples.

Results

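The 8 genes described here, *Opn1sw*, *Gnat2*, *Pde6c*, *Pde6h*, *Gnb3*, *Gngt2*, *Cnga3* and *Cngb3*, encode autosomal components of the light response of mouse cones. They were chosen by name, as 8 of the 20807 protein-coding genes on chromosomes 1 to 19, and every peak that CUT&RUN gave near them in postnatal day 2 (P2) mouse retina was collected. CUT&RUN is an assay in which an antibody directs a nuclease to cut out the DNA around a histone mark or a transcription factor (TF). A peak was counted at a transcription start site (TSS) when it shared at least 1 bp with the 1 kb on either side of any annotated start of the gene, and in the wider window when it shared at least 1 bp with the gene body plus 20 kb on each side. Those windows held 132 of the 246656 peaks in the 5 mouse lists.

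The study profiled retinas of mouse and of the 13-lined ground squirrel (13LGS) in 36 libraries, and the squirrel lists were not used here. The mouse libraries came from nuclei of whole, snap-frozen P2 retina, as 2 biological replicates that each pooled retinas from 3 individuals; no strain, genotype or treatment is given in the labels. There were 2 libraries each for H3K4me3, H3K27ac, H3K4me1 and the IgG control, 4 for Neurod1 and 8 for Otx2, of which 4 used the R&D antibody and 4 the Atlas antibody. Each list was made from all libraries of its target together, so every peak has 1 fold enrichment over IgG and 1 −log10 q. There is therefore no spread between replicates, no test across samples could be made, and the depth behind each fold is unknown. Because the retina was assayed in bulk, fewer cells with a mark and less of the mark in each cell cannot be told apart.

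Cones turn light into an electrical signal through a chain of proteins that each have a close relative in rods. An opsin absorbs a photon and activates transducin, a G protein of an alpha, a beta and a gamma subunit. Transducin relieves the inhibitory gamma subunit of a cyclic GMP phosphodiesterase, cyclic GMP falls, and cyclic nucleotide-gated channels made of CNGA3 and CNGB3 close. H3K4me3 marks promoters, H3K27ac active promoters and enhancers, and H3K4me1 enhancers and the flanks of promoters. Otx2 is a homeodomain TF that photoreceptor precursors need, and Neurod1 is a basic helix-loop-helix TF of the same cells.

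The genes divided by which targets reached their starts. Otx2 peaks lay within 1 kb of a TSS of 5 of the 8 genes, *Gnb3*, *Gnat2*, *Cngb3*, *Cnga3* and *Gngt2*, beside 52.2% of all protein-coding genes. H3K4me1 lay there in 7 of 8 genes, all but *Pde6h*, beside 64.8% of all genes. H3K4me3 lay there in 4 of 8, beside 57.1%, and H3K27ac in 2 of 8, beside 23.1%. Neurod1 lay there in 2 of 8, *Gnb3* and *Gngt2*, beside 6.0% of all genes. *Opn1sw* and *Pde6c* had H3K4me1 alone at a TSS, a pattern of 1835 genes or 8.82% of all, and *Pde6h* had no peak of any target there, as did 6254 genes or 30.1%. With 8 genes, 1 gene more or less moves a share by 12.5 percentage points, so the shares for H3K4me3, H3K27ac and Otx2 lie within 1 gene of the share over all genes.

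**Figure D1:**
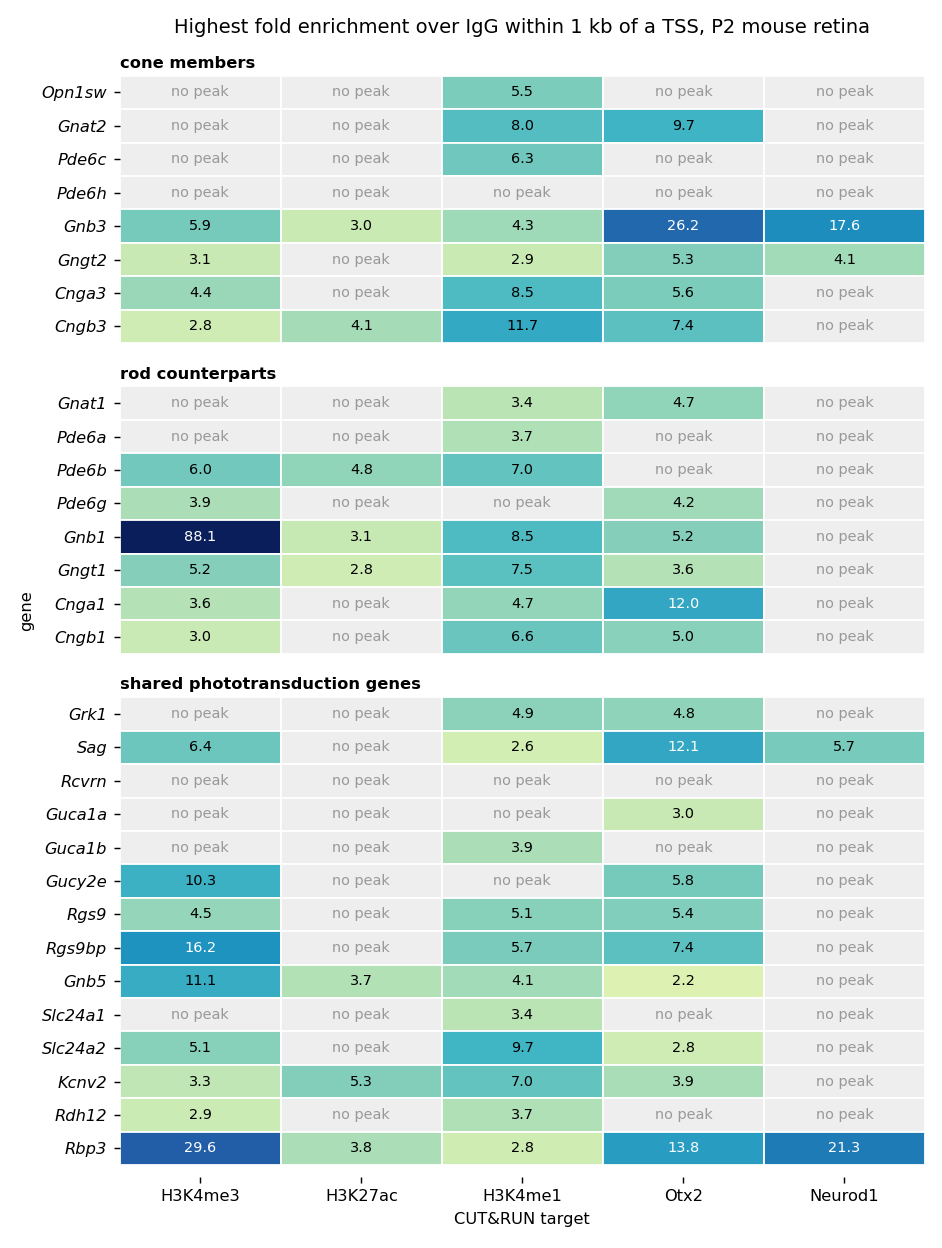
Highest fold enrichment over IgG among the peaks within 1 kb of any TSS, for the 8 cone genes, 8 rod counterparts and 14 genes listed as shared phototransduction genes (rows), in the 5 mouse CUT&RUN lists (columns). Darker cells are higher and grey cells hold no peak: *Gnb3* has the highest Otx2 value of the 30 genes, 26.2, and the rows of *Pde6h* and of the shared gene *Rcvrn* are empty.

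The heights of the H3K4me3 and Otx2 peaks lay on opposite sides of those of other genes. The 4 H3K4me3 peaks at a TSS measured 5.90-fold over IgG at *Gnb3*, 4.39 at *Cnga3*, 3.07 at *Gngt2* and 2.79 at *Cngb3*, while the median over all genes with such a peak was 17.6. Of the 11872 genes with an H3K4me3 peak at a TSS, 11.4% were at or below *Gnb3* and 0.539% at or below *Cngb3*. For Otx2 all 5 values were above the median of 3.98 over the 10869 genes that had one. They were 26.2 at *Gnb3*, 9.74 at *Gnat2*, 7.37 at *Cngb3*, 5.60 at *Cnga3* and 5.30 at *Gngt2*. All 5 genes thus had an Otx2 fold above the median together with an H3K4me3 fold below its median or no H3K4me3 peak, which held for 19.9% of the genes with Otx2 at a TSS. H3K4me1 folds were spread over the range of other genes, from 2.93 at *Gngt2* to 11.7 at *Cngb3*, around a median of 5.63 over all genes with one.

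**Figure D2:**
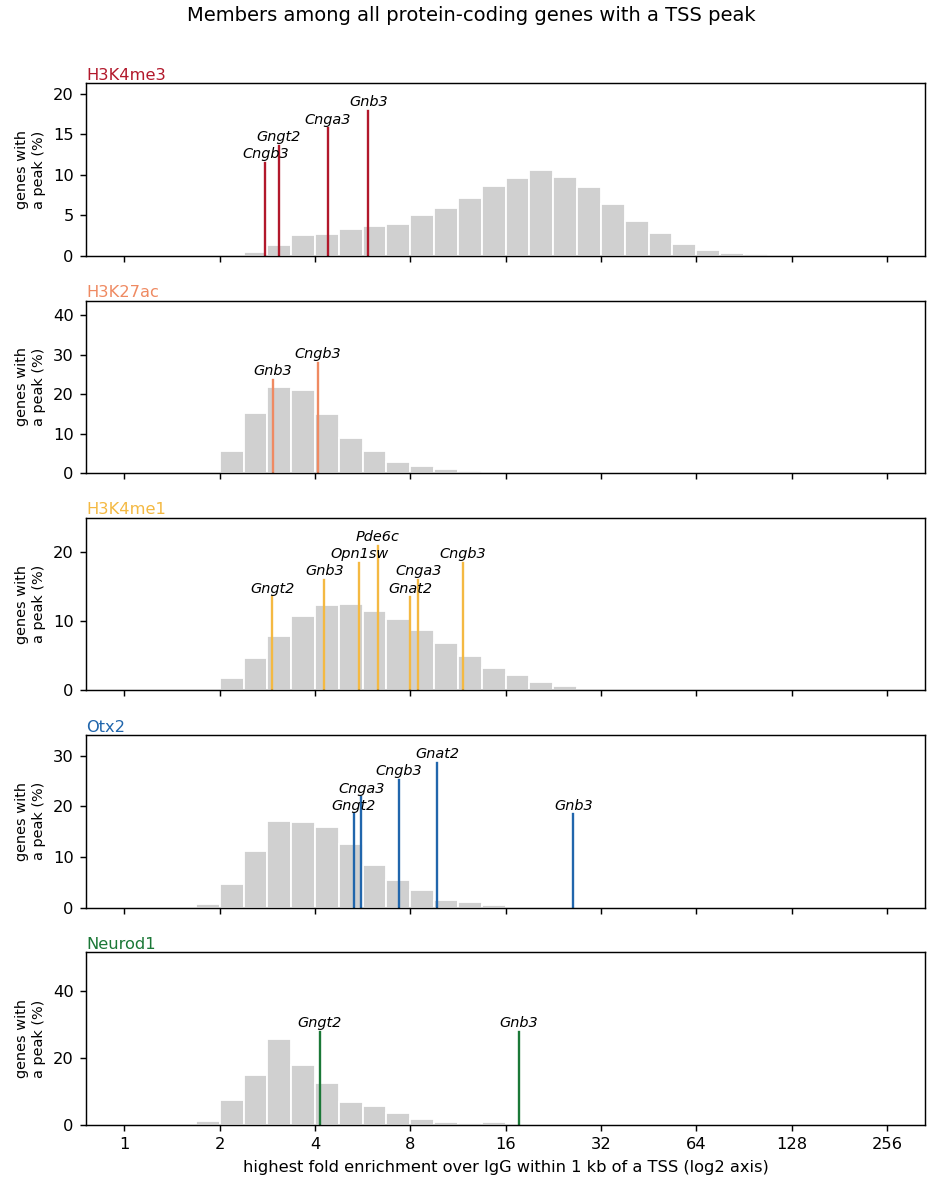
Distribution of the highest fold enrichment within 1 kb of a TSS over all protein-coding genes with a peak (grey bars, percent of genes with a peak of that target, log2 horizontal axis), with the cone genes as coloured lines. The 4 H3K4me3 lines lie in the lower tail, from 2.79 to 5.90, and the 5 Otx2 lines in the upper part, from 5.30 to 26.2.

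The starts of all 8 genes were poor in CpG, and the comparison with other genes changed when this was taken into account. The highest ratio of observed to expected CpG within 500 bp of a TSS ran from 0.125 at *Cngb3* to 0.400 at *Gnat2*, with a median of 0.321, beside 0.640 over all genes. All 8 were below 0.6, as were 46.1% of protein-coding genes, 9587 in number. In that CpG-poor group, which was set up after the data had been seen, 17.3% of genes had Otx2 at a TSS, 35.5% H3K4me1, 17.7% H3K4me3, 10.3% H3K27ac and 2.83% Neurod1. The counts for the cone genes, 5, 7, 4, 2 and 2 of 8 in the same order, were above each of these shares. Of the CpG-poor genes with Otx2 at a TSS, 31.5% combined a high Otx2 fold with a low or absent H3K4me3 peak as defined above. H3K4me3 peaks at CpG-poor starts were also lower, with a median of 9.26, and the 4 cone genes lay below that value too.

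**Figure D3:**
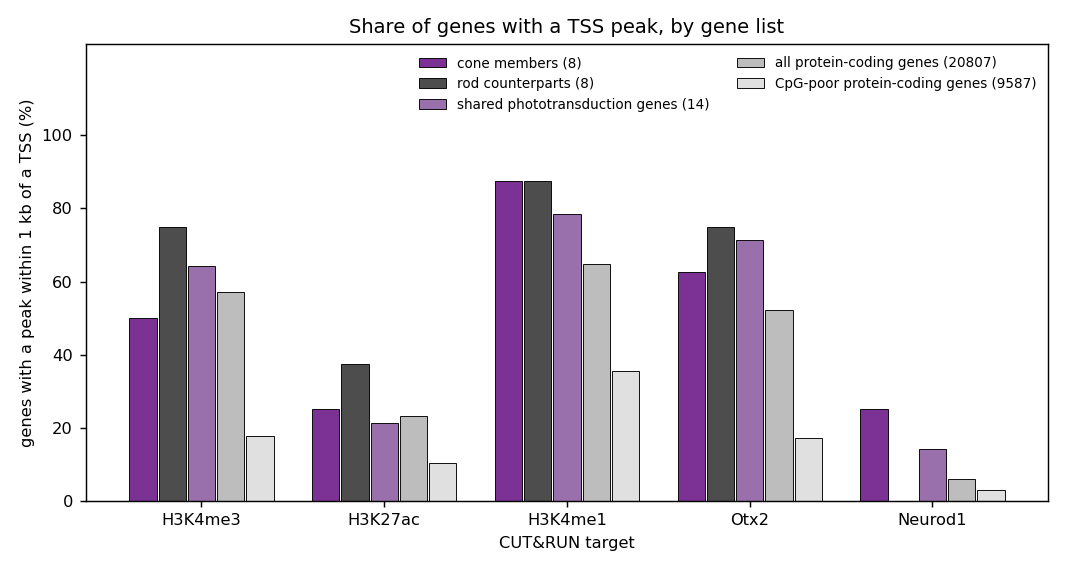
Share of genes (percent, from 0) with a peak within 1 kb of a TSS for each target, in the 8 cone genes, the 8 rod counterparts, the 14 shared phototransduction genes, all protein-coding genes and those with a CpG ratio under 0.6. The cone genes stand near all genes for H3K4me3, H3K27ac and Otx2 and above the CpG-poor genes for every target, while no rod counterpart has Neurod1.

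*Opn1sw*, the gene of the short-wavelength cone opsin (ENSMUSG00000058831.13, GRCm38 chr6:29376671-29388468, minus strand), had no TF peak at a TSS. H3K4me1 was present at the annotated 5′ end, 5.52-fold, and again 3.93-fold with its summit 31 bp downstream of the internal start that RefSeq uses. A further H3K4me1 peak of 5.60-fold lay in an intron between them. The only H3K4me3 peak inside the gene was a weak one of 3.09-fold, 2159 bp past the nearest start, and 95.6% of H3K4me3 peaks in the list were at or above it. The other H3K4me3 peak in the window, 14.4-fold, and 2 of the 3 Otx2 peaks, 3.24 and 2.82, were within 1 kb of a TSS of the neighbour *Ccdc136*. The third Otx2 peak, 3.69-fold, lay between the genes, 6.21 kb upstream of *Opn1sw*, on H3K4me1 alone.

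The 250 bases before the RefSeq start of *Opn1sw* are shown because H3K4me1 covers them without Otx2. Capitals mark AGGTCA, the element of nuclear receptors such as those for thyroid hormone and retinoic acid, or its reverse complement TGACCT, searched on both strands as were TAATCC and CAGATG. The stretch lies at chr6:29380514-29380763 (GRCm38.p6, from RefSeq) and is written 5′ to 3′ on the minus strand.
*Opn1sw* promoter: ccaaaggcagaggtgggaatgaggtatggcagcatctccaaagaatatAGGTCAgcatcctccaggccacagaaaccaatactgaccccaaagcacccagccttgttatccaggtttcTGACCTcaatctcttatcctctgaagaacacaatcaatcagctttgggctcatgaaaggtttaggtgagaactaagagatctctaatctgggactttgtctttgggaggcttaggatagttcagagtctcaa
AGGTCA was in 14.1% of all 31396 RefSeq promoters of this length on chromosomes 1 to 19, and neither TAATCC nor CAGATG matched here.

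*Gnat2*, the alpha subunit of cone transducin (ENSMUSG00000009108.15, chr3:108092789-108101432, plus strand), had the second-highest Otx2 value of the 8. A 9.74-fold peak with a −log10 q of 53.2 had its summit 56 bp downstream of a start, and a second of 4.62-fold lay 262 bp upstream of an internal start. Only 3.19% of genes with Otx2 at a TSS had a fold as high as 9.74. One broad H3K4me1 peak of 8.01-fold covered both, and neither H3K4me3 nor H3K27ac reached any start of the gene. H3K4me3 was present at 94.8% and H3K27ac at 39.9% of the genes with Otx2 at a TSS, and H3K4me1 with Otx2 alone was the pattern of 348 genes, 1.67% of all. The nearest H3K4me3 peak, 6.59-fold, was 6.74 kb upstream, within 1 kb of a TSS of *Ampd2*. *Gnat1*, its rod counterpart, showed the same combination at lower values, Otx2 4.73 and H3K4me1 3.42.

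A match to TAATCC, the site of Otx2 and its relative Crx, was centred 114 bp from the summit of the *Gnat2* peak. It is given with 12 bases on either side, from chr3:108093035-108093064 on the plus strand, with the match (as its reverse complement GGATTA) in capitals.
*Gnat2* start: gggacaatccccGGATTAggaaggagctct
The same letters were in 6.26% of RefSeq promoters over the 250 bases before the start.

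*Gnb3*, the beta subunit of cone transducin (ENSMUSG00000023439.11, chr6:124834240-124840275, minus strand), was the only one of the 8 genes with all 5 targets at a TSS, as were 690 genes or 3.32% of all. Its Otx2 peak at chr6:124839126-124841540 reached 26.2-fold with a −log10 q of 556, and was the 17th highest of 29115 Otx2 peaks. Among genes with Otx2 at a TSS it ranked 7th of 10869. The Neurod1 peak over the same start reached 17.6-fold with a −log10 q of 251, which was 40th of 4744 peaks and 5th of 1249 genes. The summits lay 169 and 452 bp upstream of the start. The histone marks at the same place were ordinary or low, with H3K4me3 of 5.90, H3K4me1 of 4.28 and H3K27ac of 2.54 over the start. A second H3K27ac peak, 2.95-fold, had its summit 819 bp upstream. Of the genes with H3K27ac at a TSS, 74.1% were at or above 2.95. Within 150 bp of the Otx2 summit there were 2 matches to TAATCC, 1 to CAGATG, an E-box of Neurod1, at 25 bp, and 1 to AGGTCA at 61 bp. The same CAGATG was 258 bp from the Neurod1 summit, which had no CAGATG within 150 bp.

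*Gnb1*, the beta subunit of rod transducin and of many other cells, had the opposite balance. Its H3K4me3 peak was 88.1-fold and its Otx2 peak 5.22-fold, and Neurod1 was absent from its TSS. Peaks in the 46.0 kb window of *Gnb3* also came within 1 kb of starts of *Tpi1*, *Cdca3*, *Usp5*, *P3h3* and *Gpr162*. Of its 30 peaks, 14 were within 1 kb of a start of these genes and not of *Gnb3*, including H3K4me3 of 32.4-fold at *Tpi1* and 19-fold at *Cdca3* and *Usp5*, where Otx2 of 9.85-fold and Neurod1 of 3.14-fold were found as well. A further site 19.9 kb upstream, in an exon of *Gpr162*, carried Otx2 of 4.03, H3K4me3 of 3.99 and H3K27ac of 4.29 together.

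*Gngt2*, the gamma subunit of cone transducin (ENSMUSG00000038811.13, chr11:95837216-95845734, plus strand), had Otx2 and Neurod1 together at an internal start. The Otx2 peak was 5.30-fold, 46 bp downstream of that start, and the Neurod1 peak 4.14-fold, 33 bp downstream of it, 6.44 and 6.43 kb into the annotated gene. H3K4me1 was 2.93 and H3K4me3 3.07, and the H3K4me3 summit lay 862 bp from the nearest start. The Otx2 peak and the H3K4me1 peaks at starts of *Gngt2* are also within 1 kb of a TSS of the overlapping gene *Abi3*. They therefore cannot be assigned to *Gngt2* alone. The highest peaks of its window were 21.4 kb past the 5′ end for Otx2, 6.58-fold in an intron of *Gm11527*, and 22.2 kb past it for H3K4me3, 19.2-fold, and the 2 peaks overlapped. Its pattern of H3K4me3, H3K4me1, Otx2 and Neurod1 without H3K27ac was shared by 388 genes or 1.86%. *Gngt1*, the rod gamma subunit, had Otx2 at 3.59, H3K4me3 at 5.19, H3K27ac at 2.80, and no Neurod1.

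*Pde6c*, the catalytic subunit of the cone phosphodiesterase (ENSMUSG00000024992.13, chr19:38132781-38183958, plus strand), carried H3K4me1 at its TSS, 6.32-fold with the summit 548 bp upstream. No H3K4me3 or H3K27ac peak lay anywhere in its 91.2 kb window. Its only TF peaks, Otx2 of 2.62-fold and Neurod1 of 3.07-fold, overlapped each other in an intron 22.7 kb from the 5′ end, on an H3K4me1 peak of 4.31-fold. Both were low for their lists, with 84.7% of Otx2 peaks and 74.8% of Neurod1 peaks at or above them. *Pde6b*, a catalytic subunit in rods, had H3K4me3 of 6.03, H3K27ac of 4.76 and H3K4me1 of 7.04 at a TSS and no Otx2.

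The 300 bases around the Otx2 summit in the *Pde6c* intron are shown as 1 of 3 places away from a start where Otx2 and Neurod1 peaks of these genes overlapped. They lie at chr19:38155329-38155628, plus strand, with TAATCC or GGATTA in capitals.
*Pde6c* intron: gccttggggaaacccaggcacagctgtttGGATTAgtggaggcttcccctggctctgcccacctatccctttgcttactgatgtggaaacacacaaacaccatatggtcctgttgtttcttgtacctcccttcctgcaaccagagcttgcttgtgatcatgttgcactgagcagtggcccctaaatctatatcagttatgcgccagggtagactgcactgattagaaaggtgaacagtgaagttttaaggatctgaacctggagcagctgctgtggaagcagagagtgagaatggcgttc
The match lay 118 bp from the Otx2 summit and 129 bp from the Neurod1 summit, and no CAGATG was found within 150 bp of either.

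*Pde6h*, the inhibitory gamma subunit of the cone phosphodiesterase (ENSMUSG00000064330.9, chr6:136923832-136968865, plus strand), was the only gene of the 8 without a peak at a TSS. Its 85.0 kb window held 7 peaks, the same number as the windows of *Pde6c* and *Cnga3*. For *Pde6h* these were 5 of H3K4me1 and 1 each of Otx2 and Neurod1, and none lay within 1 kb of its 4 annotated starts. The Otx2 peak of 3.19-fold and the Neurod1 peak of 3.79-fold overlapped 10.2 and 10.1 kb upstream, in an intron of *Erp27*, on H3K4me1 of 4.39-fold. One of the H3K4me1 peaks, 2.31-fold, was within 1 kb of a TSS of *Arhgdib*. *Pde6g*, the rod counterpart, had H3K4me3 of 3.85 and Otx2 of 4.23 at a TSS.

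For *Pde6h* the 250 bases before the RefSeq start, which no peak touched, and the 300 bases around the distal Otx2 summit are given together. They lie at chr6:136954273-136954522 and chr6:136913529-136913828, both on the plus strand, with CAGATG or its reverse complement CATCTG in capitals.
*Pde6h* promoter: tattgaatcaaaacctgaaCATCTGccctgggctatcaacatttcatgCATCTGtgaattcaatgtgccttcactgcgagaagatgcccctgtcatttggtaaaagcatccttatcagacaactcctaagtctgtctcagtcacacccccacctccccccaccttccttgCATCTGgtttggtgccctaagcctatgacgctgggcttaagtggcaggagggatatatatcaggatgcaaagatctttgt
*Pde6h* distal peak: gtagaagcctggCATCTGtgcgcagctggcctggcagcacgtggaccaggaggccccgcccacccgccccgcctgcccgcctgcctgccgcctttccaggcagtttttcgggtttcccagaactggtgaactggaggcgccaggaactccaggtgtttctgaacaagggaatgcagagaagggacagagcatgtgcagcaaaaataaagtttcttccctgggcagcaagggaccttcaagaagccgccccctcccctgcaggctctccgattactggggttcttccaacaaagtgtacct
The promoter stretch held 3 matches to CAGATG, which occurred in 14.5% of RefSeq promoters, and the distal stretch held 1, centred 135 bp from the Otx2 summit.

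*Cnga3*, the alpha subunit of the cone channel (ENSMUSG00000026114.14, chr1:37214434-37263384, plus strand), was marked at internal starts, with the Otx2 summit 4.52 kb and the H3K4me3 summit 5.31 kb into the annotated gene. Otx2 was 5.60-fold with its summit 254 bp upstream of a start, H3K4me1 8.47 and H3K4me3 4.39, and no H3K27ac or Neurod1 peak lay in the 89.0 kb window. The combination of H3K4me3, H3K4me1 and Otx2 is a common one, held by 5120 genes or 24.6%. H3K4me1 of 5.51-fold also covered the 5′ end of the annotated gene, where Otx2 had no peak. A second Otx2 peak, 2.61-fold, lay in an intron 36.6 kb from the 5′ end without any histone peak. *Cnga1*, the rod alpha subunit, had a higher Otx2 value of 12.0 and an H3K4me3 value of 3.58.

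The 300 bases around the *Cnga3* Otx2 summit, at chr1:37218801-37219100 on the plus strand, hold a TAATCC match centred 71 bp from the summit, in capitals as GGATTA.
*Cnga3* start: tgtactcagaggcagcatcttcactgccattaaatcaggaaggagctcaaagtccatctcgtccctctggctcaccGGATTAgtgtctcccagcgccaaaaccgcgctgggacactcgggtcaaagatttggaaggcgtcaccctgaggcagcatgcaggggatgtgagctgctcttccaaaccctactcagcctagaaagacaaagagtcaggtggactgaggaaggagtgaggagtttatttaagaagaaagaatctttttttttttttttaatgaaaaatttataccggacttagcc

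*Cngb3*, the beta subunit of the cone channel (ENSMUSG00000056494.7, chr4:19280850-19510623, plus strand), was the longest gene of the 8. At its single start H3K4me1 was 11.7-fold, Otx2 7.37 with its summit 123 bp downstream, and H3K4me3 2.79. H3K27ac was 3.79-fold with its summit 551 bp downstream, and 4.08-fold in a second peak with its summit 1168 bp upstream. The pattern of all targets at a TSS but Neurod1 was shared by 3330 genes or 16.0%. The 270.0 kb window held 9 H3K27ac and 13 H3K4me1 peaks, none within 1 kb of another protein-coding gene's TSS. Past the end of *Cngb3*, H3K27ac of 3.30, 3.84 and 4.32 and H3K4me1 of 3.66 lay inside the neighbour *Cpne3*, 240 to 250 kb from the start. *Opn1sw*, *Gnat2* and *Gnb3* had 3 H3K27ac peaks each in shorter windows of 51.8, 48.6 and 46.0 kb. The highest H3K4me1 value among the 132 peaks, 15.3-fold, lay in a *Cngb3* intron 51.7 kb from the start, with an Otx2 peak of 2.32-fold inside it and no H3K27ac. A further H3K4me1 peak of 12.3-fold with H3K27ac of 3.31 lay 12.2 kb upstream. *Cngb1*, the rod beta subunit, had H3K4me3 of 3.03, H3K4me1 of 6.63 and Otx2 of 5.03.

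The 300 bases around the intronic Otx2 summit of *Cngb3*, at chr4:19332829-19333128 on the plus strand, are shown because they hold 2 matches to TAATCC, 1 on each strand and in capitals, the nearer centred 20 bp from the summit.
*Cngb3* intron: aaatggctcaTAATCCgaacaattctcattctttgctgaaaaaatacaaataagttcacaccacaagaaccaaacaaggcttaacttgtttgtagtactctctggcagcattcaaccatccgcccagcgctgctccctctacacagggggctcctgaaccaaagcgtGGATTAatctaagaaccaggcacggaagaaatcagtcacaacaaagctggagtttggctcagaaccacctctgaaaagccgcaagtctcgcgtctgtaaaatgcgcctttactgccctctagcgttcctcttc

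**Figure D4:**
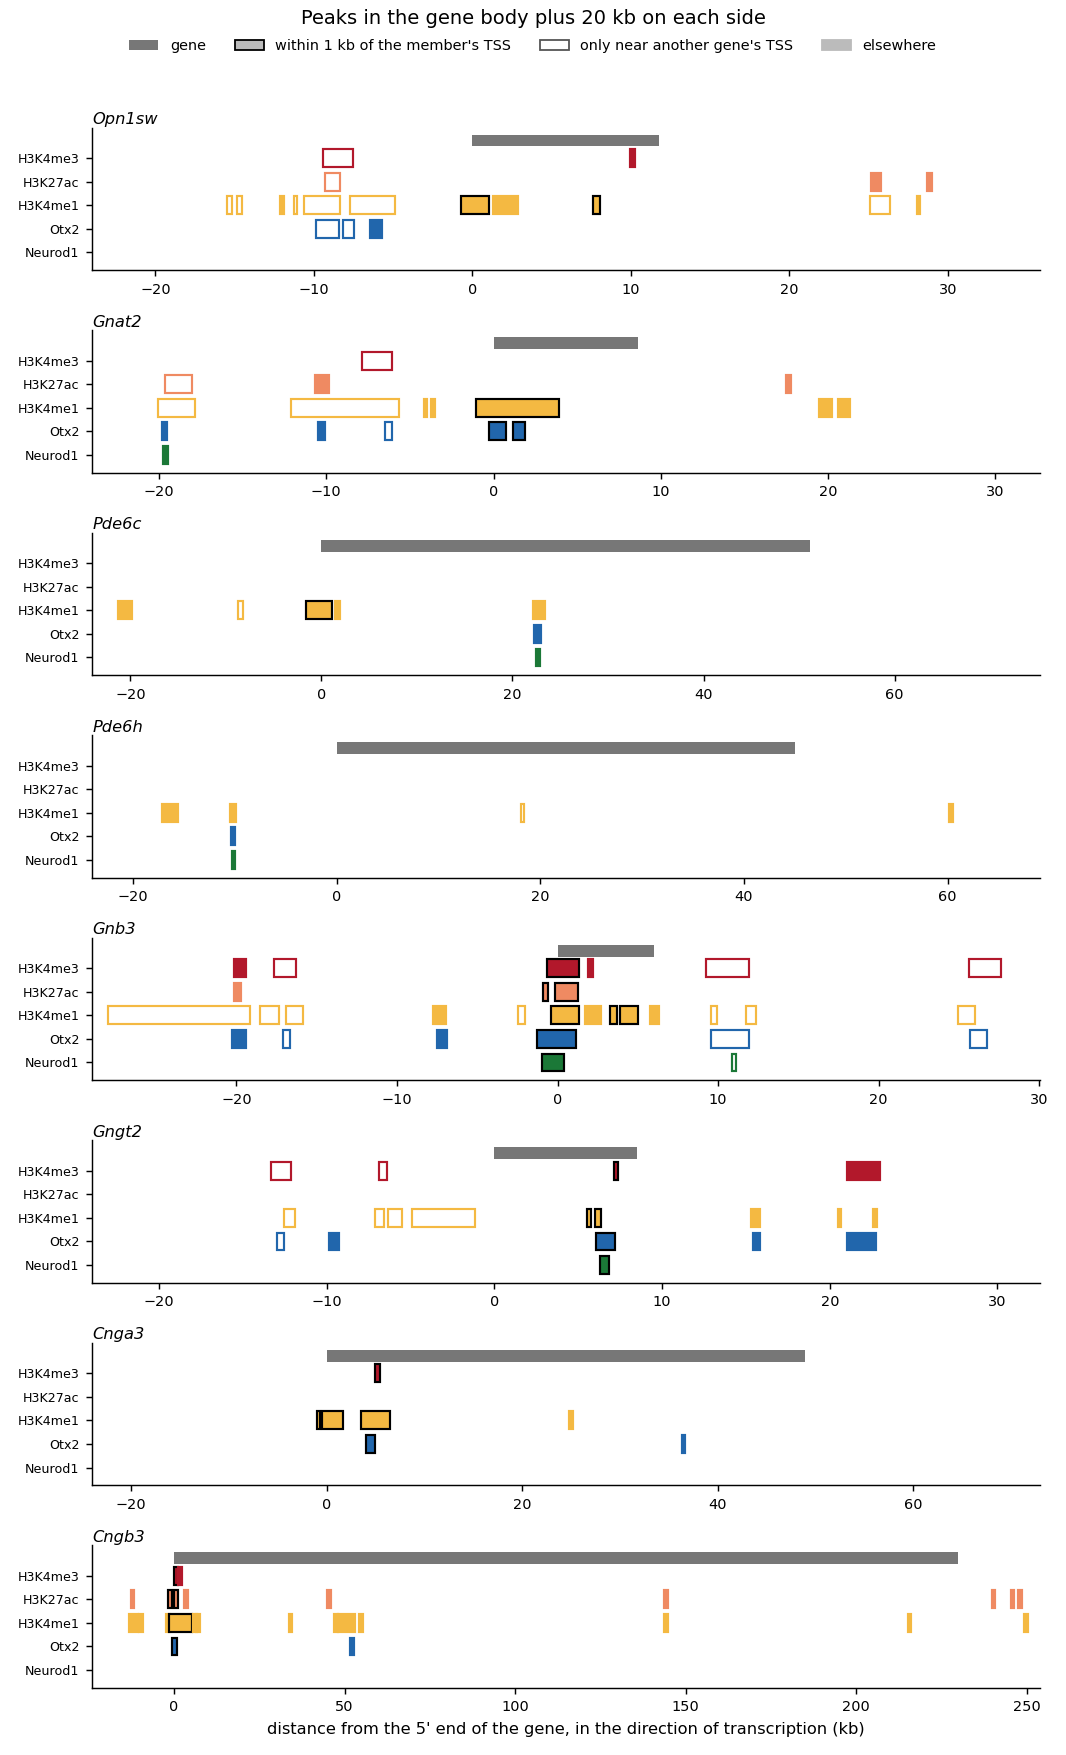
Peaks of the 5 targets (rows in each panel) along the gene body plus 20 kb on each side of the 8 genes, by distance in kb from the 5′ end of the annotated gene; narrow peaks are drawn wider than they are so that they can be seen. Black outlines mark peaks within 1 kb of the gene's own TSS and open boxes peaks near only another protein-coding gene's TSS. H3K4me1 lies in all 8 panels, and *Pde6c*, *Pde6h*, *Cnga3* and *Gngt2* have no H3K27ac.

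Over the wider windows, Otx2 and H3K4me1 had at least 1 peak in all 8 genes, beside 71.6% and 82.7% of all protein-coding genes. The same held for all 8 rod counterparts and all 14 shared phototransduction genes. H3K4me3 was found in 6 of 8 windows, beside 67.9%, H3K27ac in 4 of 8, beside 55.2%, and Neurod1 in 5 of 8, beside 20.2%. The windows of the cone genes were somewhat longer, with a median of 68.4 kb against 57.6 kb. Per 100 kb of window there were 3.42 Otx2 peaks, 0.822 of Neurod1, 9.18 of H3K4me1, 2.47 of H3K27ac and 2.19 of H3K4me3. Over all genes the same densities were 2.25, 0.347, 7.41, 3.29 and 1.48. By this pooled density H3K27ac was the only target that was sparser around the cone genes. The median count per window went the other way, with 1.5 H3K27ac peaks in the cone genes and 1.0 over all genes. *Cngb3* alone gave 9 of the 18 H3K27ac peaks and 270 of the 730 kb. Around the rod counterparts the densities were 4.96, 0.641, 10.2, 3.04 and 2.56. H3K27ac was thus sparser there too by density, while its median count was again 1.5. Around the shared genes they were 3.30, 0.641, 10.6, 4.39 and 1.56. Part of this signal belongs to neighbours, since some peaks were within 1 kb of the TSS of another protein-coding gene only. These were 7 of the 16 H3K4me3 peaks, 2 of 18 for H3K27ac and 21 of 67 for H3K4me1. For Otx2 they were 7 of 25 and for Neurod1 1 of 6. Starts of genes that are not protein-coding were not counted.

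The 25 Otx2 peaks were sorted by the histone peaks they overlapped, into promoter (H3K4me3), active enhancer (H3K27ac without H3K4me3) and poised enhancer (H3K4me1 without either). The names follow the study, which sorted accessible elements with a further limit on signal, whereas here TF peaks were sorted by an overlap of 1 bp with no such limit and no accessibility data. There were 13 promoter, 2 active and 8 poised peaks and 2 without a histone peak. In the whole Otx2 list these classes held 43.3%, 22.6%, 26.9% and 7.2% of peaks. Only 4 of the 13 promoter peaks lay within 1 kb of a TSS of a cone gene. Others were at starts of neighbours such as *Ccdc136*, *Tpi1* and *P3h3*. Of the 8 poised peaks, 2 lay within 1 kb of a TSS of a cone gene, both at *Gnat2*. Both active Otx2 peaks lay upstream of *Gnat2*, at 19.8 and 10.2 kb, with 2.74 and 2.10-fold enrichment. Of the 6 Neurod1 peaks, 2 were promoter, 1 active and 3 poised, where the whole list had 40.1% active. Of these, 1 promoter peak (*Gnb3*) and 1 poised peak (*Gngt2*) lay within 1 kb of a TSS of a cone gene.

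Every one of the 6 Neurod1 peaks overlapped an Otx2 peak, as did 82.1% of all Neurod1 peaks, and the reverse held for 6 of 25 Otx2 peaks against 13.1% of the list. These shared places were the starts of *Gnb3* and *Gngt2*, the *Cdca3* and *Usp5* start near *Gnb3*, the *Pde6c* intron, the site upstream of *Pde6h* and a site 19.8 kb upstream of *Gnat2*. At this last site Otx2 was 2.74-fold and Neurod1 3.76-fold, on H3K4me1 of 6.87 and H3K27ac of 3.33 that also reached within 1 kb of a TSS of *Ampd2*, and CAGATG was centred 51 bp from the Neurod1 summit. Its 300 bases around the Otx2 summit, at chr3:108072837-108073136 on the plus strand, are given with TAATCC in capitals. That TAATCC lay outside the called Otx2 peak.
*Gnat2* upstream site: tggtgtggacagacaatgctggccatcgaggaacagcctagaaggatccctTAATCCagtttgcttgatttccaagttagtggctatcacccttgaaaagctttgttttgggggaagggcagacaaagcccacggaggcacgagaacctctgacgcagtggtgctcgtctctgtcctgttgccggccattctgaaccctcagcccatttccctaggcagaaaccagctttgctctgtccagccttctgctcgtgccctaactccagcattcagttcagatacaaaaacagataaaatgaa

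The letters TAATCC occurred within 150 bp of the summit in 8 of the 25 Otx2 peaks, beside 18.3% of the list. The 8 were at the starts of *Gnat2*, *Gnb3* and *Cnga3*, in the introns of *Pde6c*, *Cngb3* and *Cnga3*, upstream of *Gnat2* and 21.4 kb downstream of the 5′ end of *Gngt2*. A match within 150 bp can lie outside the called peak, as did those in the *Cnga3* intron and upstream of *Gnat2*. CAGATG was there in 8 of 25, beside 22.3%, and AGGTCA in 3 of 25, beside 17.4%. Near the 6 Neurod1 summits CAGATG was present once, beside 52.3% of the Neurod1 list, TAATCC once, beside 14.2%, and AGGTCA in none, beside 19.8%. The RefSeq promoter table held *Opn1sw*, *Gnat2*, *Pde6h* and *Cnga3*, and *Gnb3*, *Gngt2*, *Pde6c* and *Cngb3* were not found in it. A match or its lack in such windows describes the letters only.

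The rod counterparts and the shared phototransduction genes gave a scale for these counts. The shared list was drawn up by name, and whether rods and cones both use each of its genes was not tested. Among the 8 rod genes, H3K4me3 lay at a TSS in 6, H3K27ac in 3, H3K4me1 in 7, Otx2 in 6 and Neurod1 in none. Among the 14 shared genes the counts were 9, 3, 11, 10 and 2. The phosphodiesterase genes of cones, *Pde6c* and *Pde6h*, had neither H3K4me3 nor Otx2 at a TSS, whereas *Pde6b* and *Pde6g* had H3K4me3 of 6.03 and 3.85. *Pde6a*, the other catalytic subunit of rods, named after its values were seen, had neither. Neurod1 was at the starts of *Sag*, the arrestin gene, at 5.73, and *Rbp3*, which encodes the retinoid-binding protein of the space around photoreceptors, at 21.3, the latter above *Gnb3*. The combination of high Otx2 and low or absent H3K4me3 that all 5 Otx2-marked cone genes showed was found in 4 of 6 rod genes (*Gnat1*, *Pde6g*, *Cnga1* and *Cngb1*) and in 5 of 10 shared genes (*Grk1*, *Gucy2e*, *Rgs9*, *Rgs9bp* and *Sag*). The lists are small and no test was made, so these counts do not show that cone and rod genes differ.

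For the 5 genes with at least 2 targets at a TSS, the most alike protein-coding genes were found by Euclidean distance between the log2 folds of the 5 targets, with 0 where no peak was present. *Gnat2* was nearest to *Caps2* at 0.32, with H3K4me1 7.31 and Otx2 7.96, then to *Tnnt1* at 0.51 and *Dct* at 0.53. *Gnb3* had no close match, since its nearest, *Tecpr1*, *Pdcd10* and *Mindy4*, were 1.77 to 1.96 away. *Mindy4* exceeded it in Otx2, 31.7, but had Neurod1 of 4.70. *Gngt2* was nearest to *Ttc12*, *Top1mt* and *Coq8a*, at 0.73 to 0.96, *Cnga3* to *Otulinl*, *Edn1* and *Pacsin1*, at 0.16 to 0.18, and *Cngb3* to *Gprin3*, *T2* and *Tppp3*, at 0.67 to 0.72.

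The tissue label was checked against marker genes. All 10 retinal markers had H3K4me3 and H3K27ac at a TSS, with H3K4me3 between 24.9 and 159, while 1 of 13 markers of pigment epithelium, lens, liver, muscle and blood had H3K4me3 there, *Ckm* at 10.8, and none had H3K27ac. H3K4me1 lay at a TSS of 5 and Otx2 at a TSS of 3 of those 13, among them the pigment epithelium genes *Ttr*, with H3K4me1 of 16.5 and Otx2 of 4.06, and *Best1*, with 5.14 and 4.59, while the highest H3K4me1 of a retinal marker was 16.2. The H3K4me3 of the cone genes, 2.79 to 5.90, was below every retinal marker.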

How the data were processed

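The deposited files are peak lists of CUT&RUN libraries from mouse and 13LGS retina. Per the study's methods and the submitters' processing notes, the authors trimmed reads with cutadapt 3.5 and Trim Galore 0.6.4, aligned them to GRCm38 with Bowtie2, removed reads with a MAPQ of 30 or below with SAMtools 1.12, removed duplicates with UMI-tools, combined the technical replicates, and used MACS2 to find peaks at a q of 0.05 jointly over the replicates of each target against IgG. Peaks on blacklisted and mitochondrial sequence were removed. The deposited columns used here are the fold enrichment over IgG at the summit, a ratio, and the −log10 of the q-value, both given by the authors for the pooled libraries. Joint calling leaves no value per library, and a broad mark can be split into several peaks.

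Peaks of the 5 mouse lists were overlapped with GENCODE M21 genes in Python 3.11.15, with an overlap of at least 1 bp, and the overlap counts were tested on simulated intervals against bedtools 2.31.1. The background was every protein-coding gene on chromosomes 1 to 19. A gene's value at a TSS is the highest fold among its peaks within 1 kb. Sequences were read from GRCm38.p6 and the RefSeq promoter table with pysam 0.24.0. The genes named besides the 8 are those of the other lists with Otx2 or H3K4me3 at a TSS, the 3 nearest patterns, neighbours with a TSS near a counted peak, genes that hold a described peak, and markers. *Pde6a* and *Rcvrn* were named as well, after their values were seen. The 8 genes, the lists and the counts were chosen with earlier results of these data known. The rod list held 1 gene more than the 8 given, which is not reported here. The alternatives were other limits on q and fold, summits in place of overlap, other distances, merged peaks and other motif windows.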

Additional observations from a re-analysis of the deposited data

How the results depend on the processing

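No paired analysis was possible because each peak list pools all libraries of its target, and for the same reason no replicate could be left out. Of 105 alternative counts, 79 stayed within 1.5 times the value reported. Limiting the lists to a −log10 q of at least 5 left H3K4me3 at a TSS in 2 of the 8 genes, without *Cngb3* and *Gngt2*, and H3K27ac in 1, without *Gnb3*, while the Otx2, Neurod1 and H3K4me1 TSS counts kept the same genes. Over all genes the shares at that limit were 55.1% for H3K4me3, 12.8% for H3K27ac and 43.0% for Otx2, so H3K4me3 (2 of 8) and Otx2 (5 of 8) were then more than 1 gene away from the overall share. The same limit left 10 H3K4me3, 8 H3K27ac and 15 Otx2 peaks in the windows, and among the rod counterparts H3K4me3 in 3 of 8 and H3K27ac in 1 of 8. At 500 bp *Gngt2* also lost H3K4me3 (3 of 8, beside 56.7% of all genes). At 2 kb *Opn1sw* gained H3K4me3 (5 of 8, beside 57.6%). With a flank of 10 kb there were 10 H3K27ac peaks, and in the gene bodies alone 7 H3K4me3, 5 H3K27ac, 27 H3K4me1, 9 Otx2 and 3 Neurod1 peaks. Without peaks near the TSS of another protein-coding gene there were 9 H3K4me3 and 44 H3K4me1 peaks. Sorting TF peaks by their summit gave 10 promoter, 1 active and 11 poised Otx2 peaks and 3 without a histone peak. Poised Otx2 peaks then outnumbered promoter ones. For Neurod1 it gave 2 promoter, 1 active and 2 poised peaks and 1 without a histone peak. Within 50 bp of the summit, 1 Otx2 peak held TAATCC, beside 2.45% of the list, and 2 held CAGATG, beside 7.05%. No Neurod1 peak (0 of 6) held TAATCC or CAGATG there, beside 2.87% and 9.53% of the Neurod1 list. In whole peaks, CAGATG was in 14 Otx2 peaks, beside 37.9% of the list, and AGGTCA in 7, beside 32.2%. Of the whole Neurod1 peaks, TAATCC was in 2, beside 20.4%, CAGATG in 3, beside 58.2%, and AGGTCA in 1, beside 28.7%. The restriction to CpG-poor genes was chosen after seeing the data and lowers every background share. Low peaks near the q limit, H3K4me3 at *Cngb3* and *Gngt2* among them, are the least certain, and a missing peak says only that none passed that limit at a depth that is unknown.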

Other observations

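The retinal markers *Crx*, *Nrl* and *Neurod1*, which encode photoreceptor TFs and were singled out after their values were seen, each had a higher H3K4me3 value at a TSS than any of the 8 cone genes. *Crx*, the homeodomain TF that acts beside Otx2, had all 5 targets at a TSS, with H3K4me3 of 46.3, H3K27ac of 5.85, H3K4me1 of 10.2, Otx2 of 14.6 and Neurod1 of 3.26. *Nrl*, which directs rod fate, had H3K4me3 of 24.9, H3K27ac of 4.28, Otx2 of 3.52 and Neurod1 of 3.19. *Neurod1* itself had H3K4me3 of 40.9, Otx2 of 9.79 and a Neurod1 peak of 11.1. Of these and the 8 cone genes, *Gnb3* had the highest Otx2 and Neurod1 values, 26.2 and 17.6, beside an H3K4me3 value of 5.90.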
